A study of Mus musculus with 23 samples.

Results

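Immediate early transcription factors are genes whose transcripts rise within minutes of a signal reaching the cell, without new protein being made first. The 10 genes described here are Fos, Fosb, Jun, Junb, Jund, Egr1, Egr2, Egr3, Ier2 and Atf3. They were chosen by name as this class of gene, not by their values, though with earlier results of these data known. The deposited count table holds 23453 genes. Of the 10 genes, 8 passed the filter on low counts, as did 13941 genes of the table, and Fosb and Egr3 did not.

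FOS and JUN proteins pair through a leucine zipper to form the AP-1 transcription factor, ATF3 is a related leucine-zipper protein induced by stress, the EGR proteins bind GC-rich sites through zinc fingers, and IER2 is a small nuclear protein of the same early response. Signals from G-protein coupled receptors reach these genes through MAP kinases acting on ELK factors and SRF, and through cyclic AMP acting on CREB. G-protein receptor kinases phosphorylate activated receptors, after which arrestins bind and dampen the signal.

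RNA was measured in hearts of C57BL/6 mouse embryos at embryonic day 13.5, in 23 libraries of 3 genotypes. The 8 wild-type samples had unmodified GRK2, GRK5 and GRK6 and no Cre. The 8 haploinsufficient samples were GRK2 fl/wt, GRK5 fl/fl and GRK6 KO/KO with Nkx2.5Cre, and the 7 triple-knockout samples were GRK2 fl/fl with the same GRK5, GRK6 and Cre alleles. Nkx2.5Cre acts in the cardiac lineage, so other cells of the heart can keep floxed alleles. The wild-type samples differ from both other groups in Cre and in the floxed and knocked-out alleles together, and these cannot be told apart.

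Library totals lay between 3838166 and 14050559 counts (wild type), between 1757257 and 11025358 (haploinsufficient) and between 6657734 and 13864731 (triple knockout). In CPM, read counts relative to the scaled library size, Cre was at 17.7 ± 4.90 with 1 wild-type GRK2 allele, 18.5 ± 5.61 with none and 0.332 ± 0.341 in the wild type (SD). Grk2, listed as Adrbk1 and summed over all its exons and untranslated regions, stood at 54.3 CPM ± 4.25 in the wild type, 42.5 CPM ± 12.04 in the haploinsufficient and 34.4 CPM ± 6.60 in the triple-knockout libraries (SD). This sum does not show the loss of the floxed exons alone. Nkx2-5, summed in the same way, stood at 98.3 CPM ± 10.4, 70.2 CPM ± 16.2 and 49.7 CPM ± 12.9 in the same order (SD). The part of Nkx2-5 in the results below was not tested. All 7 cardiomyocyte markers were detected, and their summed level ran from 26581 to 39922 CPM in the wild type, from 23316 to 44044 CPM in the haploinsufficient group and from 23353 to 45616 CPM in the triple knockout. The 7 endothelial markers were all tested, and their summed level was lower in the haploinsufficient group, 675 to 923 CPM (median 711), than in the wild type, 802 to 1046 CPM (median 968), with 817 to 974 CPM (median 873) in the triple knockout. Their mean log2 deviation from the wild type was -0.35 ± 0.15 in the haploinsufficient and -0.11 ± 0.12 in the triple-knockout libraries (SD). Of 13 markers of lung, foregut, liver and thymus, 9 were tested, and their summed level ran from 6.96 to 42.8 CPM in the wild type, from 15.1 to 233 CPM in the haploinsufficient group and from 14.9 to 127 CPM in the triple knockout. Of 7 neural markers 6 were tested, and their summed level ran from 30.2 to 42.1 CPM in the wild type, from 34.4 to 54.4 CPM in the haploinsufficient group and from 41.6 to 122 CPM in the triple knockout. The libraries carry IDs of 2 sets, 1 to 12 and 19 to 30, and both sets hold all 3 genotypes. The labels do not say that replicates came from separate embryos, so p-values measure the spread between these libraries, which may be technical. In whole hearts, fewer cells of a type and less RNA per cell cannot be told apart.

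Upstream sequence was read from RefSeq start sites (GRCm38.p6, the mm10 build). Of the 10 genes, 7 had an entry. The 130 bases before the start are printed for 5 of them, because these genes span the range from the highest member, Jund, to a low one, Egr2, and differ in the signal-response motifs they hold. Each runs 5′ to 3′ on the gene's strand, and capitals mark every match, on either strand, to the motifs searched. The stretches lie at chr12:85473760-85473889 (plus strand) for Fos, chr4:95052223-95052352 (minus) for Jun, chr8:84978749-84978878 (minus) for Junb, chr8:70697609-70697738 (plus) for Jund and chr10:67537739-67537868 (plus) for Egr2.
Fos: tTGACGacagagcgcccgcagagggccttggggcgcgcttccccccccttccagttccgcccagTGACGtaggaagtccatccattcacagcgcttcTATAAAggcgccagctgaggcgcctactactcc
Jun: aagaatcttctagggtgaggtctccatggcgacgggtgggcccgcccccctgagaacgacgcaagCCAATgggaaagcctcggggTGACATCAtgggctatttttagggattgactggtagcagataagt
Junb: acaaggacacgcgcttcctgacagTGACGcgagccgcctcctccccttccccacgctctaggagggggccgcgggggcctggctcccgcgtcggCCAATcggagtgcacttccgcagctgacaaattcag
Jund: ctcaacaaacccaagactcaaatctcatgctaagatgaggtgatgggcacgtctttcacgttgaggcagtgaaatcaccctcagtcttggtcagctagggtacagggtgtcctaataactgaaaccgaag
Egr2: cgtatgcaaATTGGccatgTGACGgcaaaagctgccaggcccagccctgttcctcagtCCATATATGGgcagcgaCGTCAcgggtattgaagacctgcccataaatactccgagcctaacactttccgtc

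The motifs searched were the CArG box bound by SRF, the full cyclic AMP response element TGACGTCA, its shorter core TGACG (which overlaps it), the variant TGACATCA, the AP-1 site TGANTCA, the EGR site GCGNGGGCG, TATAAA and CCAAT. Windows from 250 bases before to 50 bases after the start were compared with the same windows of 32851 RefSeq starts. TGACG was present in 5 of the 7 members (Atf3, Egr2, Fos, Fosb and Junb) and in 20.8% of all windows. A CArG box was present in Egr2, and in 1.63% of all windows. TGACATCA was present in Jun, 45 bases before its start, and in 3.62% of all windows. CCAAT was present in 4 of the 7 (Atf3, Egr2, Jun and Junb) and in 37.4% of all windows, and TATAAA in Fos and Junb and in 13.6% of all windows. The TATAAA letters of Junb begin at the start site and lie outside the stretch printed above. The window of Fosb held GCGNGGGCG, found in 5.55% of all windows. No window of the 7 members held TGACGTCA (1.79% of all windows) or TGANTCA (7.81%). The Jund window held none of the searched letters. Sequence outside these windows was not searched, so a motif absent here may lie farther from the start. Egr1, Egr3 and Ier2 had no entry and were not searched. These matches describe sequence and were not tested as sites of binding.

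The 10 genes differed widely in their level per transcript length. In the deposited FPKM values (fragments per kilobase of transcript, scaled by library size), the mean over the 23 libraries was 48.9 ± 8.60 for Jund (SD), 29.2 ± 3.22 for Jun, 14.4 ± 2.64 for Ier2, 9.51 ± 2.17 for Atf3, 9.25 ± 2.70 for Junb, 3.13 ± 1.02 for Fos, 2.39 ± 0.866 for Egr1, 0.595 ± 0.281 for Egr2, 0.478 ± 0.438 for Egr3 and 0.184 ± 0.158 for Fosb. Jund exceeded Jun, Jun exceeded Ier2, Junb exceeded Fos and Egr1 exceeded Egr2 in 23 of 23 libraries. Ier2 exceeded Atf3 in 20 of 23 libraries and Fos exceeded Egr1 in 17 of 23. Neighbours that did not separate beyond their spread were Atf3 and Junb (14 of 23 libraries in that order), Egr2 and Egr3 (13 of 23) and Egr3 and Fosb (15 of 23). Among the 22544 entries above 0 in wild-type FPKM, Jund stood at percentile 92.5 and Jun at percentile 88.0, Fos at percentile 50.6 and Egr1 at percentile 47.9, and Fosb at percentile 28.3.

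**Figure D1:**
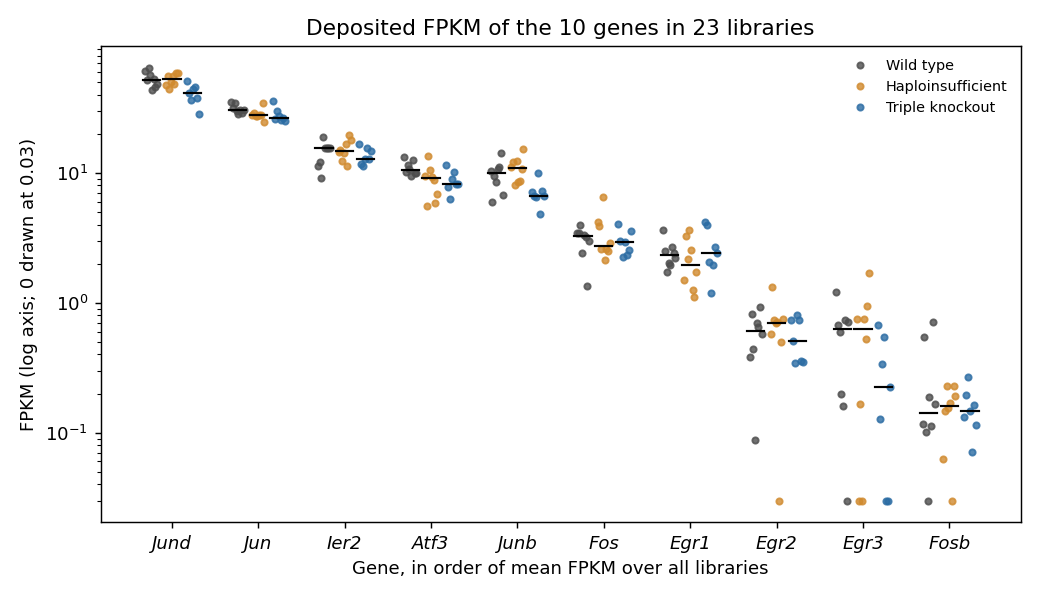
Deposited FPKM on a log axis for each of the 10 genes, 1 point per library and 1 colour per genotype, with values of 0 drawn at 0.03. Jund and Jun stand above the others in every library, and the values of Egr2, Egr3 and Fosb overlap.

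None of the 8 tested members was called in any of the 3 comparisons by edgeR's quasi-likelihood test at a Benjamini-Hochberg adjusted p under 0.05. In the triple knockout against wild type, 0 of 8 members and 1.18% of all tested genes were called (0.488% higher and 0.696% lower). In the haploinsufficient group against wild type, 0 of 8 members and 2.24% of all tested genes were called (0.861% higher and 1.38% lower). In the triple knockout against the haploinsufficient group, 0 of 8 members and 0.395% of all tested genes were called (0.0789% higher and 0.316% lower). With backgrounds this low, a count of 0 among 8 genes is near the background and says nothing particular about the members. At an unadjusted p under 0.05, the members numbered 4 of 8 (Jun, Junb, Jund and Atf3), 0 of 8 and 2 of 8 (Junb and Jund) in these comparisons, against 10.8%, 17.2% and 15.3% of all tested genes. DESeq2 called 1 member (Jund), 0 members and 2 members (Junb and Jund), and limma on log2 FPKM called 0 in each.

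The median log2 fold change of the 8 members was -0.16 in the triple knockout against wild type (all genes 0.01), 0.07 in the haploinsufficient group against wild type (all genes 0.01) and -0.22 in the triple knockout against the haploinsufficient group (all genes 0.00). Negative values numbered 7 of 8 in the first, 3 of 8 in the next and 7 of 8 in the last. The comparisons share the triple-knockout, wild-type or haploinsufficient libraries, so these counts are not independent of each other.

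**Figure D2:**
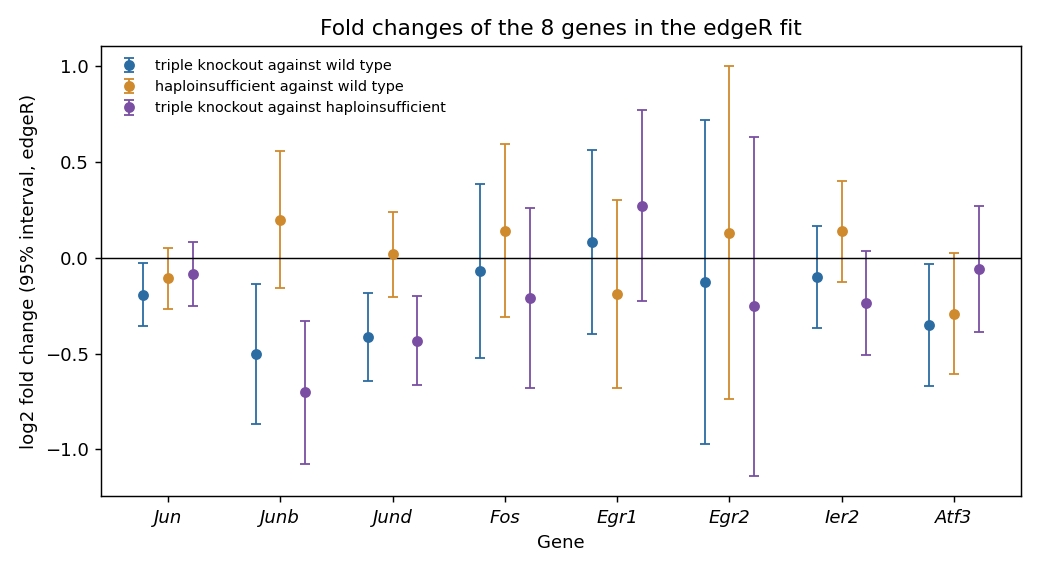
Log2 fold change of each of the 8 tested genes in the 3 comparisons, with 95% intervals from the edgeR fit. The triple-knockout points of Jund and Junb lie lowest against both other groups, Egr1 alone is positive there, and the intervals of Egr2 are the widest.

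The JUN family supplies the partners that every FOS protein needs to bind DNA. Jund, the member that cells keep at a steady level, is a single-exon gene at chromosome 8, 70697739 to 70700616 on the plus strand (mm10). Its level ran from 129 to 194 CPM in the wild type (median 150.3), from 129 to 175 CPM in the haploinsufficient libraries (median 161) and from 78.3 to 138 CPM in the triple knockout (median 113). The triple-knockout libraries were low, and 7 of 7 lay below the median of the wild type and of the haploinsufficient group, though the highest of them overlapped the lowest of both. Mean levels were 154 CPM ± 20.97, 156 CPM ± 17.0 and 115 CPM ± 22.1 in the same order (SD, n = 8, 8 and 7). The log2 fold change of Jund was -0.41 ± 0.11 (SE, 95% interval -0.64 to -0.18, edgeR adjusted p = 0.0705) in the triple knockout against wild type. Against the haploinsufficient group it was -0.43 ± 0.11 (SE, interval -0.66 to -0.20, adjusted p = 0.0780). Between the haploinsufficient group and the wild type it was 0.02 ± 0.11 (SE, interval -0.20 to 0.24, adjusted p = 0.953). These differences in the triple knockout missed the threshold in the edgeR fit and passed it in DESeq2 (adjusted p = 0.0224 against wild type and 0.0169 against the haploinsufficient group).

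Single libraries moved Jund across the threshold. Without triple-knockout replicate 4 or replicate 5 its edgeR adjusted p against wild type was 0.0450 or 0.0394. Without haploinsufficient replicate 3 or triple-knockout replicate 5 it was 0.0267 or 0.0472 against the haploinsufficient group. Only these 2 of 23 leave-outs passed in each comparison. Leaving out other libraries gave an edgeR adjusted p of up to 0.214 against wild type and 0.199 against the haploinsufficient group. Within ID set 1 to 12 the log2 fold change of Jund was -0.54 against wild type and -0.36 against the haploinsufficient group. Within ID set 19 to 30 it was -0.29 and -0.50, and no adjusted p passed within a set (0.141, 0.270, 0.687 and 0.286).

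Jund has the highest GC content of the members over its exons, 67.15%, and the libraries differed in how their counts followed GC content and exon length. The level of Jund, with group and ID set means removed, had r = 0.66 and rho = 0.71 over 23 libraries with a library's GC trend (permutation p = 0.00059 and 0.00023, adjusted over 6 relations 0.00354 and 0.00138), and r = 0.76 without the 2 libraries farthest from the median trend. Within the ID sets this r was 0.50 and 0.75. With the length trend it had r = -0.54 and rho = -0.56 (permutation p = 0.00838 and 0.00675, adjusted 0.0251 and 0.0203), r = -0.41 without the 2 farthest libraries, and -0.49 and -0.59 within the ID sets. The 6 relations are those of Jund, Jun and Junb with the GC and length trends. For the other tested members only r was computed. It ran from -0.046 (Fos) to 0.23 (Ier2) with the GC trend and from -0.45 (Fos) to 0.28 (Egr1) with the length trend. The adjusted p-values do not account for these further relations. A library's trend is a rank correlation over genes. It relates GC content or exon length to each gene's deviation from its mean log2 CPM over all libraries. For exon length it had a mean of 0.200 ± 0.304 in the triple knockout, 0.0333 ± 0.219 in the wild type and -0.172 ± 0.236 in the haploinsufficient group (SD). For GC content the means were -0.084 ± 0.162, 0.057 ± 0.136 and 0.035 ± 0.145 in the same order (SD). With offsets corrected for GC content and exon length, the log2 fold change of Jund was -0.25 against wild type (edgeR adjusted p = 0.195) and -0.27 against the haploinsufficient group (adjusted p = 0.281), smaller by more than 1.5 times in each case. Without the 5 libraries of highest lung, foregut, liver and thymus score (3 haploinsufficient and 2 triple knockout) it was -0.36 (adjusted p = 0.194) and -0.33 (adjusted p = 0.584). The part of the neural markers in this difference was not tested. An antisense gene of GENCODE M21, Gm11175, overlaps Jund over 877 bases, and its reads cannot be told apart in these non-stranded counts.

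Junb, whose protein often opposes JUN in cell growth, is a single-exon gene at chromosome 8, 84976909 to 84978748 on the minus strand. It ran from 10.3 to 25.99 CPM in the wild type (median 17.6), from 14.4 to 27.98 CPM in the haploinsufficient libraries (median 19.6) and from 8.87 to 18.8 CPM in the triple knockout (median 11.3). Only triple-knockout replicate 5, at 8.87 CPM, lay below the wild-type range, and the others lay within it. Only replicate 4, at 18.8 CPM, reached into the haploinsufficient range. Of the triple-knockout libraries, 7 of 7 lay below the haploinsufficient median and 6 of 7 below the wild-type median. The log2 fold change of Junb was -0.70 ± 0.18 (SE, interval -1.07 to -0.33, edgeR adjusted p = 0.0780) in the triple knockout against the haploinsufficient group, the lowest of the 8 members in any comparison. Against wild type it was -0.50 ± 0.18 (SE, interval -0.87 to -0.14, adjusted p = 0.225), and in the haploinsufficient group against wild type 0.20 ± 0.17 (SE, adjusted p = 0.593). Against the haploinsufficient group, DESeq2 gave Junb an adjusted p of 0.0192. Without haploinsufficient replicate 3 or triple-knockout replicate 4, the edgeR adjusted p was 0.0326 or 0.0358. Only these 2 of 23 leave-outs passed, and leaving out other libraries gave an edgeR adjusted p of up to 0.178. Junb, with a GC content of 62.58%, had r = 0.023 and rho = 0.028 with the GC trend of the libraries (permutation p = 0.917 and 0.902, adjusted over the 6 relations 0.917 and 0.902). With the length trend it had r = -0.35 and rho = -0.35 (permutation p = 0.101 and 0.0966, adjusted 0.152 and 0.193), and without the 2 farthest libraries r was -0.067 and -0.17. Within the ID sets r was -0.17 and 0.11 with the GC trend and -0.56 and -0.22 with the length trend. Within the ID sets 1 to 12 and 19 to 30 the fold change of Junb against the haploinsufficient group was -0.82 (adjusted p = 0.0968) and -0.60 (adjusted p = 0.444), and with GC and length offsets it was -0.52 (adjusted p = 0.314). Without the 5 libraries of highest lung, foregut, liver and thymus score it was -0.54 (adjusted p = 0.609).

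**Figure D3:**
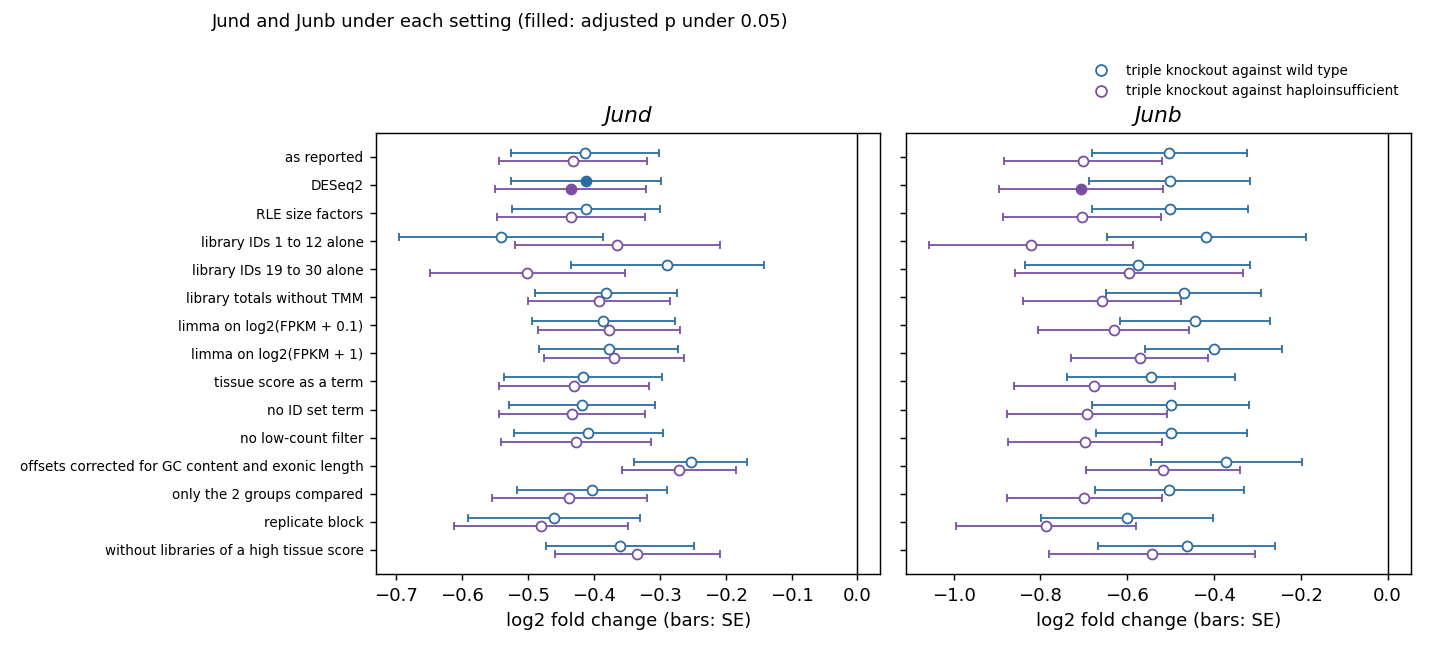
Log2 fold change with its SE for Jund and Junb, triple knockout against wild type and against the haploinsufficient group, under each way of processing the data. Every point is negative. The filled points, which pass the threshold, are those of DESeq2: Jund in both comparisons and Junb against the haploinsufficient group.

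Jun, the main partner of FOS in AP-1, is a single-exon gene at chromosome 4, 95049036 to 95052222 on the minus strand. It ran from 93.9 to 116 CPM in the wild type (median 99.7), from 82.2 to 113 CPM in the haploinsufficient libraries (median 91.3) and from 76.7 to 104 CPM in the triple knockout (median 88.0). The 3 ranges overlapped, and 6 of 7 triple-knockout and 7 of 8 haploinsufficient libraries lay below the wild-type median. The log2 fold change of Jun was -0.19 ± 0.08 in the triple knockout (SE, interval -0.36 to -0.03, edgeR adjusted p = 0.336) and -0.11 ± 0.08 in the haploinsufficient group (adjusted p = 0.499) against wild type. Between these groups it was -0.08 ± 0.08 (adjusted p = 0.646). Jun varied little between libraries of a genotype: its biological coefficient of variation was 0.111, and only 10.2% of tested genes had a lower dispersion relative to genes of like abundance. The antisense gene Junos overlaps Jun over 232 bases.

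Among the FOS family, Fos, the classic marker of recent stimulation, lies on chromosome 12 from 85473901 to 85477270 with 4 exons. It ran from 2.87 to 8.40 CPM in the wild type (median 6.77), from 4.499 to 14.6 CPM in the haploinsufficient libraries (median 5.73) and from 4.26 to 7.49 CPM in the triple knockout (median 5.85). The ranges overlapped throughout, with haploinsufficient replicate 4 alone above 8.66 CPM. The log2 fold change of Fos was -0.07 ± 0.22 in the triple knockout (SE, interval -0.52 to 0.39, edgeR adjusted p = 0.951) and 0.14 ± 0.22 in the haploinsufficient group (interval -0.31 to 0.59, adjusted p = 0.786) against wild type, and -0.21 ± 0.23 between these groups (adjusted p = 0.695). The intervals leave room for changes of either sign.

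Fosb, a second FOS protein, lies on chromosome 7 from 19302696 to 19310045 with 4 exons and was near the limit of detection. Its counts over all libraries of a group were 52 (wild type), 26 (haploinsufficient) and 38 (triple knockout). Its level ran from 0 to 2.87 CPM in the wild type (median 0.556), from 0 to 0.899 CPM in the haploinsufficient libraries (median 0.657) and from 0.286 to 0.963 CPM in the triple knockout (median 0.605). It had no count in 2 of the 23 libraries. At 3 counts, a library without a count allows 0.214 CPM in the deepest and 1.71 CPM in the shallowest library, a limit that covers counting error only. Exact permutation of libraries on log2(CPM + 1), two-sided, gave Fosb p = 0.494 in the triple knockout against wild type, 0.463 in the haploinsufficient group against wild type and 0.907 between these groups.

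Of the EGR family, Egr1, the most abundant member of the family here, lies on chromosome 18 from 34861207 to 34864956 with 2 exons. It ran from 5.55 to 11.03 CPM in the wild type (median 7.32), from 3.504 to 12.3 CPM in the haploinsufficient libraries (median 6.22) and from 3.93 to 11.7 CPM in the triple knockout (median 7.22). The 2 mutant groups spread to both sides of the wild type. Egr1 had a log2 fold change of 0.08 ± 0.23 (SE, interval -0.40 to 0.56, edgeR adjusted p = 0.945) in the triple knockout and -0.19 ± 0.24 (interval -0.68 to 0.30, adjusted p = 0.727) in the haploinsufficient group against wild type, and 0.27 ± 0.24 between these groups (adjusted p = 0.622).

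Egr2, known for its role in the hindbrain and in myelinating glia, lies on chromosome 10 from 67537869 to 67542188 with 2 exons. It ran from 0.257 to 2.87 CPM in the wild type (median 1.87), from 0 to 4.09 CPM in the haploinsufficient libraries (median 2.19) and from 0.963 to 2.57 CPM in the triple knockout (median 1.44). The ranges of the 3 groups overlapped almost fully, and haploinsufficient replicate 6 had no count. Egr2 had a log2 fold change of -0.12 ± 0.41 in the triple knockout (SE, interval -0.97 to 0.72, edgeR adjusted p = 0.954), 0.13 ± 0.42 in the haploinsufficient group (adjusted p = 0.911) and -0.25 ± 0.43 between these groups (adjusted p = 0.822).

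Egr3, known for its role in muscle spindles, lies on chromosome 14 from 70077445 to 70080157 with 2 exons. Its counts over all libraries of a group were 45 (wild type), 40 (haploinsufficient) and 24 (triple knockout), with no count in 5 of 23 libraries. It ran from 0 to 1.54 CPM in the wild type (median 0.835), from 0 to 2.30 CPM in the haploinsufficient libraries (median 0.839) and from 0 to 0.795 CPM in the triple knockout (median 0.283). The triple-knockout libraries lay within the range of both other groups. Exact permutation on log2(CPM + 1), two-sided, gave Egr3 p = 0.156 in the triple knockout against wild type, 0.906 in the haploinsufficient group against wild type and 0.201 between these groups.

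Ier2 is a single-exon gene at chromosome 8, 84661331 to 84662852 on the minus strand. It ran from 13.5 to 26.4 CPM in the wild type (median 22.5), from 16.3 to 28.5 CPM in the haploinsufficient libraries (median 22.1) and from 14.99 to 23.04 CPM in the triple knockout (median 19.4). All 3 ranges overlapped. For Ier2 the log2 fold change was -0.10 ± 0.13 (SE, interval -0.37 to 0.17, edgeR adjusted p = 0.857) in the triple knockout and 0.14 ± 0.13 (interval -0.13 to 0.40, adjusted p = 0.617) in the haploinsufficient group against wild type, and -0.24 ± 0.13 between these groups (adjusted p = 0.389). Between the ID sets, Ier2 stood at 18.9 CPM ± 3.95 (SD, n = 11) in IDs 1 to 12 and 22.3 CPM ± 3.32 (SD, n = 12) in IDs 19 to 30. That contrast had an unadjusted p of 0.0209 and an edgeR adjusted p of 0.442, and 0 of the 8 members and 0.194% of all tested genes were called in it.

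Atf3, the stress-induced leucine-zipper factor, lies on chromosome 1 from 191170297 to 191183333 with 4 exons. It ran from 18.7 to 24.5 CPM in the wild type (median 19.96), from 11.1 to 26.2 CPM in the haploinsufficient libraries (median 17.7) and from 11.3 to 20.3 CPM in the triple knockout (median 16.0). The wild-type libraries were tightly grouped, and 6 of 7 triple-knockout and 6 of 8 haploinsufficient libraries lay below their median, with overlap of all 3 groups. For Atf3 the log2 fold change was -0.35 ± 0.16 in the triple knockout (SE, interval -0.67 to -0.03, edgeR adjusted p = 0.381) and -0.29 ± 0.15 in the haploinsufficient group (interval -0.61 to 0.02, adjusted p = 0.332) against wild type. Between these groups it was -0.06 ± 0.16 (adjusted p = 0.895). The endothelial markers were also lower in the haploinsufficient libraries. With group and ID set means removed, Atf3 had r = 0.47 and rho = 0.43 with their score over 23 libraries (permutation p = 0.0232 and 0.0394, adjusted over the 8 members 0.185 and 0.158), r = 0.35 without the 2 farthest libraries, and 0.53 and 0.44 within the ID sets, so the relation did not pass after adjustment. Scores of other cell types were related to the members by r alone, without a p-value. Over all scores and members r ran from -0.46 (Ier2, cardiomyocyte) to 0.60 (Fos, epicardial). Junb had r = 0.58 with the red-cell score.

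**Figure D4:**
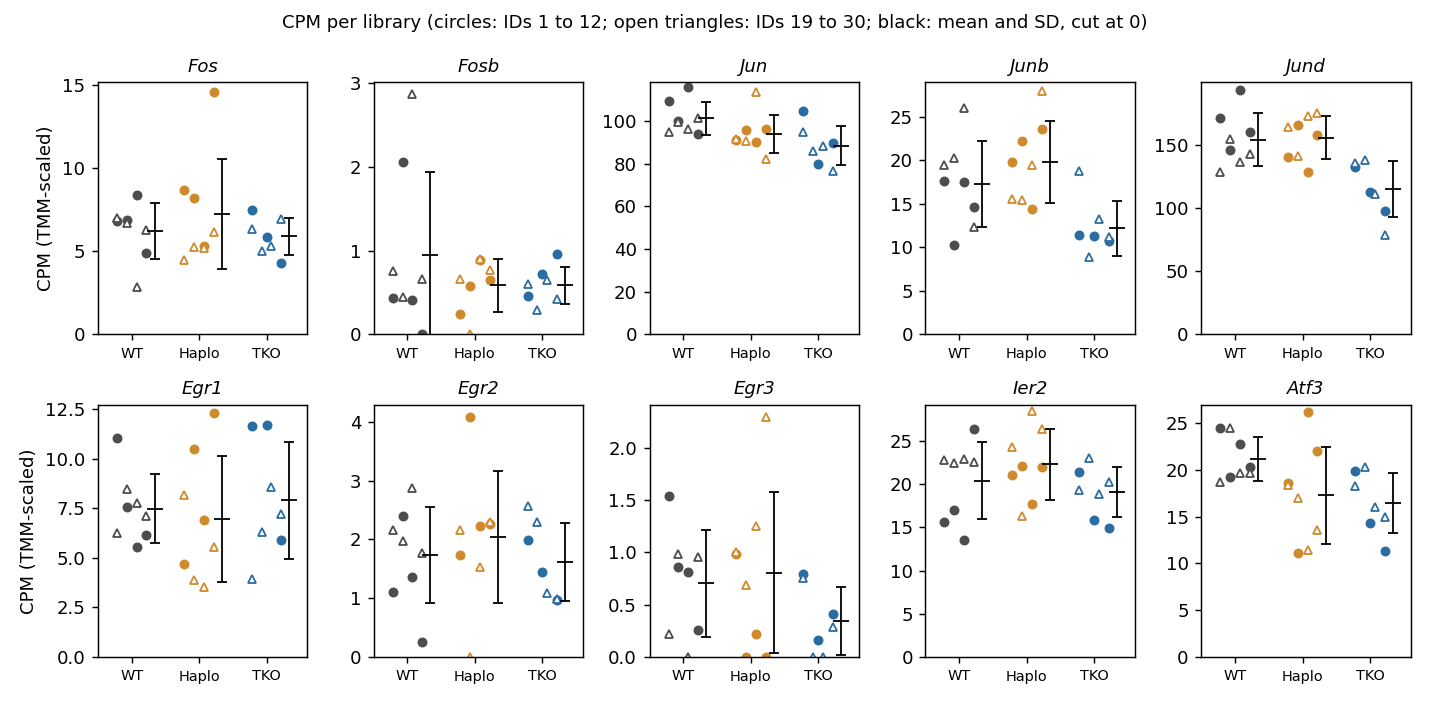
CPM of each of the 10 genes by library and genotype (WT, wild type; Haplo, haploinsufficient; TKO, triple knockout), with circles for IDs 1 to 12, triangles for IDs 19 to 30 and black marks for the mean and SD. The triple-knockout libraries of Jund lie between 78.3 and 138 CPM and overlap the lowest libraries of the other groups.

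The members varied together only weakly between libraries of a genotype. Of 28 pairs of tested members, 23 had a positive Pearson r of log2 CPM over the 23 libraries, with group and ID set means removed, and r ranged from -0.19 to 0.58 with a median of 0.14. Jun and Jund had r = 0.58 (permutation p = 0.00413, adjusted over the 28 pairs 0.116) and rho = 0.59 (permutation p = 0.00408, adjusted 0.114), and no pair passed after adjustment. Without the 2 libraries farthest from the median of Jun, r was 0.55, and within the ID sets it was 0.68 and 0.51. Jun also had r = 0.49 and rho = 0.32 with the GC trend of the libraries (permutation p = 0.0168 and 0.132, adjusted over the 6 relations 0.0337 and 0.198, r = 0.43 without the 2 farthest libraries and 0.44 and 0.53 within the ID sets), and its part in the pair was not tested. With the length trend Jun had r = -0.27 and rho = -0.27 (permutation p = 0.222 and 0.205, adjusted 0.266 and 0.246, r = -0.15 without the 2 farthest libraries and -0.30 and -0.23 within the ID sets).

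**Figure D5:**
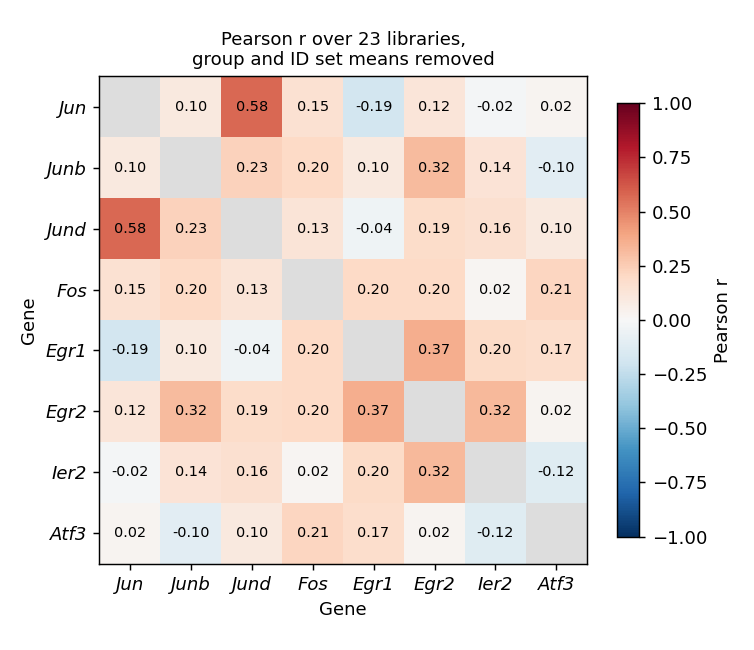
Pearson r between each pair of the 8 tested genes over 23 libraries, after group and ID set means were removed. The pair of Jun and Jund has the highest value, 0.58, and most other cells lie near 0.

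The 10 genes whose log2 CPM was most like the mean standardised level of the 8 members over 23 libraries, with group and ID set means removed and out of 12187 genes ranked, were Lamtor1 (r = 0.78), Prdx5, Ubxn6, Chmp4b, Aprt, Tsen54, Alkbh6, Hist1h3b, Arpc1b and Sh2b3 (r = 0.75). None belongs to the lists of related genes below. They had a median exonic length of 1368 bases against 3029 over the ranked genes, and a median GC content of 55.7% against 49.9%. The tested members themselves had medians of 2486 bases and 56.4%.

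Genes of the same pathway were described from lists by role. Of 13 other AP-1 and leucine-zipper partners 11 were tested. Fosl2, another FOS protein, was at -0.29 in the triple knockout (adjusted p = 0.260) and -0.31 in the haploinsufficient group (adjusted p = 0.132), and Mafk was at -0.25 in the triple knockout (adjusted p = 0.315). The list's median log2 fold change was -0.20 in the triple knockout and -0.07 in the haploinsufficient group against wild type.

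Of 31 other immediate early genes 29 were tested, of which 8 had an unadjusted p under 0.05 in the triple knockout and 5 in the haploinsufficient group against wild type (10.8% and 17.2% of all tested genes). Called lower were 1 in the triple knockout and 1 in the haploinsufficient group (0.696% and 1.38% of all tested genes). In each case it was Ctgf, a secreted matrix protein induced by YAP and SRF signals. Ctgf was at 106 CPM ± 23.6 (SD, n = 8) in the wild type, 73.3 CPM ± 15.3 (SD, n = 8) in the haploinsufficient group and 67.8 CPM ± 10.4 (SD, n = 7) in triple-knockout hearts. It fell by 0.64 ± 0.14 (SE, log2, edgeR adjusted p = 0.0125) in the triple knockout and by 0.53 ± 0.14 (SE, log2, adjusted p = 0.0344) in the haploinsufficient group, comparisons that share the wild type. The call in the haploinsufficient group was lost on leaving out any of 7 libraries (haploinsufficient replicates 1, 4, 7 or 8, or wild-type replicates 1, 6 or 8), with adjusted p up to 0.101, and that in the triple knockout on leaving out none. Within ID sets 1 to 12 and 19 to 30 Ctgf was at -0.55 and -0.72 in the triple knockout (adjusted p = 0.201 and 0.148) and at -0.66 and -0.42 in the haploinsufficient group (adjusted p = 0.233 and 0.257). In limma on log2 FPKM neither passed (adjusted p from 0.0644 to 0.109), and without the libraries of high lung, foregut, liver and thymus score the haploinsufficient call was lost (adjusted p = 0.202) at a log2 fold change of -0.45 with fewer libraries. With that score as a term it was at -0.47 (adjusted p = 0.116). The endothelial markers were lower in the haploinsufficient libraries too, and their part in this result was not tested. Rhob, a small GTPase, was at -0.30 in the triple knockout (adjusted p = 0.163). The list's median log2 fold change was -0.02 in the triple knockout and -0.05 in the haploinsufficient group against wild type, and edgeR called 0 of 29 between these groups, with 2 at an unadjusted p under 0.05 (0.395% and 15.3% of all tested genes). There DESeq2 called 1, Gadd45b, and limma 0.

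All 15 regulators upstream of the members were tested, and 1 was called lower in the haploinsufficient group against wild type (1.38% of all tested genes). Myocd, a coactivator of SRF in heart and smooth muscle, fell in the haploinsufficient group to 123 CPM ± 30.5 (SD, n = 8) from 170.0 CPM ± 21.7 (SD, n = 8), a log2 fold change of -0.47 ± 0.13 (SE, edgeR adjusted p = 0.0405). Myocd had 128 CPM ± 21.1 (SD, n = 7) in triple-knockout hearts, a log2 fold change of -0.41 (adjusted p = 0.145). The haploinsufficient call was lost on leaving out any of 10 libraries (haploinsufficient replicates 1, 2, 6, 7 or 8, or wild-type replicates 1, 5, 6, 7 or 8), with adjusted p up to 0.103. Within ID sets 1 to 12 and 19 to 30 Myocd was at -0.26 (adjusted p = 0.750) and -0.68 (adjusted p = 0.0284) there, and without the libraries of high lung, foregut, liver and thymus score at -0.31 (adjusted p = 0.318). With that score as a term it was at -0.24 (adjusted p = 0.313). The part of the endothelial markers in the Myocd result was not tested. None of the other 14 regulators was called in any comparison, and Elk4, an SRF partner, was at 0.21 in the triple knockout (adjusted p = 0.655).

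Of the MAP kinase cascade 16 of 17 genes were tested, and edgeR called 0 in any comparison, with 1, 2 and 3 genes at an unadjusted p under 0.05 in the triple knockout and the haploinsufficient group against wild type and between these groups. DESeq2 and limma also called 0. Mapk14, the p38 kinase, was at 0.24 in the triple knockout (adjusted p = 0.505). Of 14 genes of negative feedback on the cascade or the members, edgeR called 0 in any comparison, with 1 gene at an unadjusted p under 0.05 in each, and DESeq2 and limma called 0. The shares of all tested genes given for the cascade apply to this list too. Errfi1, an inhibitor of the EGF receptor, was at 0.37 in the triple knockout (adjusted p = 0.305), and Dusp4, a phosphatase of MAP kinases, was at -0.28 (adjusted p = 0.648).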

How the data were processed

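RNA of 23 mouse heart libraries (8, 8 and 7 per genotype, grouped by the genotype labels) was sequenced from a single end without strand after removal of ribosomal RNA, per the labels' protocols. The count table deposited by the authors holds whole reads per gene for 23453 genes. TopHat2 2.0.10 with Bowtie2 mapped the reads to mm10 and HTSeq counted them, per the submitters' processing notes. The FPKM values deposited by the authors came from Cufflinks 2.1, per the same notes.

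Counts were fitted with edgeR 4.0.16 (R 4.3.3), TMM scaling and quasi-likelihood tests over all 23 libraries with group and ID set terms, after its expression filter (minimum count 10, minimum total 15). Genes of each comparison were adjusted together by the Benjamini-Hochberg method at 0.05. Log2 CPM used a prior count of 1. Genes outside the fit were compared by exact permutation on log2(CPM + 1). Correlations used 100000 resamples (scipy 1.17.1). The common biological coefficient of variation was 0.208, and no 2 libraries of a group were within sampling noise of each other (lowest chi-square per degree of freedom 5.00). The fit was tested on simulated counts without the GC, length and tissue differences of these libraries. Each gene was given the spread typical of its abundance, and the changed genes were drawn from all tested genes. The shares recovered are therefore not those of the members. Of genes changed 1.25-fold it recovered 12%, 12% and 8% in the triple knockout and the haploinsufficient group against wild type and between these groups. At 1.5-fold it recovered 56%, 50% and 60%, and at 2-fold 84%, 82% and 74%. FPKM served for levels between genes and, with a pseudocount, for limma.

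The members and lists were chosen with earlier results of these data known. All 10 members are named, with, from each list, the called genes and the 2 of smallest p in the triple knockout against wild type, and the 10 genes most like the members. Alternatives were DESeq2 1.42.0, limma 3.58.1, RLE size factors, library totals, no filter, no ID set term, a replicate block, each ID set, only the groups compared, a tissue score as a term or limit (1.5 log2), and each library left out. Offsets for GC content and exonic length (known for 99.1% of tested genes) and the alternatives for list genes were chosen after seeing the data. Not every gene that the rule selects is reported here. Gadd45b was named after its values were seen.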

Additional observations from a re-analysis of the deposited data

Results flagged for a closer look

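Within each genotype, the highest and the lowest library of each of the 10 genes were compared with the others by Dixon's gap ratio, 30 groups of values in all, of which chance marks about 1 in 20. It marked 2. Fos in haploinsufficient replicate 4 was at 14.6 CPM, against 8.66 CPM in the next library, a gap of 0.586 of the group's range. Jun in haploinsufficient replicate 7 was at 113 CPM, against 96.0 CPM in the next library, a gap of 0.558 of the range.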

How the results depend on the processing

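Counts of called members moved with DESeq2 alone among the settings that keep all libraries of the groups (1 in the triple knockout against wild type, 2 against the haploinsufficient group, from 0). With 1 library left out they ranged from 0 to 1, 0 to 0 and 0 to 2 in the triple knockout against wild type, the haploinsufficient group against wild type and between these groups.

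Counts of called genes depended more on the setting. In the triple knockout against wild type (165) they were 282 with DESeq2, 50 and 51 in ID sets 1 to 12 and 19 to 30, 296 with only the groups compared, and 116 to 186 with 1 library left out. In the haploinsufficient group against wild type (312) they were 531, 20 and 179 in the first 3 of these, 115 without libraries of a high tissue score, and 152 to 612 with 1 library left out. Between these groups (55) they were 276 with DESeq2, 176 and 1 in the ID sets, 34 with library totals, 88 without a filter, 195 with the tissue score as a term, 1 with only the groups compared, and 10 to 417 with 1 library left out. They were 0 with limma at pseudocounts of 0.1 and 1 (2478 and 2452 genes at an unadjusted p under 0.05), 0 with GC and length offsets (1397) and 0 without libraries of a high tissue score (1091). With the replicate block, which needs the number to pair the samples, they were 203 in the haploinsufficient group against wild type and 0 (1942 at an unadjusted p under 0.05) between the mutant groups. Same-numbered samples did not deviate together (r from -0.26 to 0.48 over 22 pairs, 2 of them over 0.1), and 1 of 23 libraries correlated best with its own number.

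Jun and Junb kept their direction in every comparison and setting run, and Jund did in both comparisons of the triple knockout. Uncalled members that changed sign did so as follows, on the log2 scale. In the haploinsufficient group against wild type, ID set 1 to 12 gave 0.15 (Egr1) and -0.18 (Jund), ID set 19 to 30 gave -0.49 (Egr2) and -0.14 (Fos), the score term gave -0.036 (Ier2), limma gave -0.0087 at both pseudocounts (Jund), and leaving out high scores gave 0.074 (Egr1) and -0.025 (Jund). Between the mutant groups, ID set 19 to 30 gave 0.21 (Atf3), 0.15 (Egr2) and 0.16 (Fos), limma gave 0.037 and 0.031 (Atf3), GC and length offsets gave 0.0070 (Atf3), and leaving out high scores gave -0.082 (Egr1). In the triple knockout against wild type, ID set 19 to 30 gave -0.18 (Egr1) and 0.013 (Fos), ID set 1 to 12 gave 0.17 (Egr2), limma gave 0.030 (Egr2), 0.022 and 0.00902 (Fos), GC and length offsets gave 0.025 (Ier2), and leaving out high scores gave -0.0080 (Egr1). With 1 library left out, sign changes were met for Egr2 (-0.017 to 0.34), Fos (-0.040 to 0.21) and Jund (-0.012 to 0.073) in the haploinsufficient group, Atf3 (-0.15 to 0.042) between the mutant groups, and Egr1 (-0.000195 to 0.18) and Fos (-0.16 to 0.027) in the triple knockout. The cause of these changes was not tested. With the replicate block the haploinsufficient call of Myocd was lost (adjusted p = 0.0854) at a log2 fold change of -0.49, against -0.47 without the block. Depth limits Fosb, Egr3 and Egr2 most, with 116, 109 and 288 counts over all libraries.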
